A study of Homo sapiens with 10 samples.

Results

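Intermediate filament genes of simple epithelium and of mesenchymal and progenitor cells were examined in human breast epithelial cells with and without an oncogenic HRas. The 8 genes, KRT7, KRT8, KRT18, KRT19, KRT80, KRT81, VIM and NES, were taken by symbol, and each had 1 row among 26256 genes in the table of untreated cells and 1 among 55736 in the table of the Nutlin-3a experiment. MCF10A is a line of human breast epithelium that grows without limit in culture but is not tumorigenic. G12V cells derive from it and received the HRas G12V oncogene by lentivirus together with a GFP vector and were selected with hygromycin. Poly(A) RNA was sequenced from 2 libraries each of untreated MCF10A and G12V cells, and from 3 libraries each of parental MCF10A cells given 10 µM Nutlin-3a, which blocks the binding of MDM2 to p53, or its solvent DMSO for 4 h. All groups grew in medium with EGF, insulin, hydrocortisone, cholera toxin and horse serum. The labels call the libraries biological replicates but do not say whether the G12V libraries came from separate transductions.

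Keratins form filaments as obligate pairs of a type I and a type II chain. KRT8 (type II) with KRT18 (type I) is the founding pair of simple epithelium, KRT7 (type II) and KRT19 (type I) accompany it in glandular ducts, and the mammary basal layer has KRT5 with KRT14 instead. Vimentin (VIM, type III) makes the filaments of mesenchymal cells, and nestin (NES), which is known from neural and other progenitors, is built into vimentin filaments.

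The libraries held 15453226 to 23683975 counts each. Levels are given as CPM, the counts scaled to a common library size with edgeR's TMM factors. HRAS stood at 72.6 and 65.9 CPM in the MCF10A libraries and at 631 and 515 CPM in the G12V libraries, with the introduced and the endogenous transcript counted together. Of 8 epithelial markers (CDH1, EPCAM, CLDN4, OCLN, ESRP1, KRT5, KRT14 and KRT17) all 8 were lower in G12V cells by the test described below. Their summed levels were 6307 to 7829 CPM in MCF10A and 952 to 1242 CPM in G12V cells. The sums came mostly from KRT5 and KRT17 in MCF10A and from KRT5 in G12V cells. OCLN had a mean of 10.2 CPM in G12V cells and 5.62 CPM in parental cells given DMSO, which were scaled separately. The other markers had higher means with DMSO than in G12V cells. Summed levels of 8 fibroblast markers were 37.5 to 64.9 CPM in MCF10A and 53.4 to 60.1 CPM in G12V cells, and COL3A1 was at 0 reads in all 4 libraries. In cell populations read as a whole, fewer cells of a type and less RNA per cell cannot be told apart. The part of these markers in the results below was not tested.

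The RefSeq promoter table (build GRCh38.p14) matched 3 of the 8 genes. The 250 bases before the start site of VIM (chr10:17227991-17228240, plus strand) and NES (chr1:156677408-156677657, minus strand) are shown because both genes had higher levels in both G12V libraries than in both MCF10A libraries. GC boxes (GGGCGG on either strand) are in capitals.
VIM: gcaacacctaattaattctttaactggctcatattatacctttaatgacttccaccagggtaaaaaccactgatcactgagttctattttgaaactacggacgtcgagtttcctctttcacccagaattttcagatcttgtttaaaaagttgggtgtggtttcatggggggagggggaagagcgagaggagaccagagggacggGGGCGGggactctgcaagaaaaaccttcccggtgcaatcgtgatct
NES: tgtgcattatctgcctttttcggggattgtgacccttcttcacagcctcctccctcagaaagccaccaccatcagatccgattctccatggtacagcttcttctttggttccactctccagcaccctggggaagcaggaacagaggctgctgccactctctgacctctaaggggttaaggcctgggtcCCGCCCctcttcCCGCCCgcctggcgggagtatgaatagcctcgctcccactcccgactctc
VIM had 1 GC box and NES 2, a match that 42.6% of all 35116 promoters in the table held. Neither window held an AP-1 motif, spelled TGANTCA, which 6.57% of all promoters held on either strand. An E-box with the letters CACCTG, found in 17.5% of promoters, was absent from both windows as well.

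The untreated cells were compared to learn which of these filament genes differ once the oncogene is present. Of the 7 members that passed the filter on low counts (all but KRT19), 1 was differentially expressed (DE), KRT80, which was higher in G12V cells. DE here means an adjusted p under 0.05 by edgeR's quasi-likelihood test over all 14376 genes tested and an absolute log2 fold change above 0.5, and 11.0% of those genes were DE (5.01% higher and 5.95% lower). For 4 of the 7 (KRT18, KRT80, VIM and NES) the unadjusted p was under 0.05, against 25.6% of all genes. The levels of 6 of the 7 did not overlap between the groups, as in 54.8% of all genes tested.

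KRT80, a type II keratin of differentiating epithelia at chr12:52562780-52585784 (hg19, minus strand), was at 26.1 and 16.2 CPM in the MCF10A libraries and at 315 and 359 CPM in the G12V libraries. The lowest G12V library stood far above the highest MCF10A library. Its mean rose from 21.1 ± 7.05 to 337 ± 31.3 CPM (SD, n = 2 each), a log2 fold change of 4.00 (SE 0.30, 95% interval 3.26 to 4.73, adjusted p = 0.00171 by edgeR's quasi-likelihood test). Without MCF10A replicate 1 its log2 fold change was 4.40 and its adjusted p 0.0548, and no gene of all those tested was DE in that fit.

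KRT81, a type II hair keratin that some breast epithelial cells also make, lies at chr12:52679697-52685299 (minus strand). It had 4699 and 2701 CPM in MCF10A and 1941 and 2648 CPM in G12V cells. The MCF10A libraries differed from each other more than the nearest libraries of the 2 groups did, and the change was not significant, with a log2 fold change of -0.69 (SE 0.38, 95% interval -1.63 to 0.25, adjusted p = 0.335 by the same edgeR test). The value was -0.22 when MCF10A replicate 1 was left out and -1.04 when MCF10A replicate 2 was. In the annotated transcript of KRT81, 44.6% of all 50-base stretches recur exactly in other genes, 38.4% in KRT86, its neighbour in the cluster, so reads of the pair can be split by the counting. KRT86 held 1.59% to 1.68% as many reads as KRT81 in the 4 libraries, and its log2 fold change was -0.63 (adjusted p = 0.298 by edgeR).

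**Figure D1:**
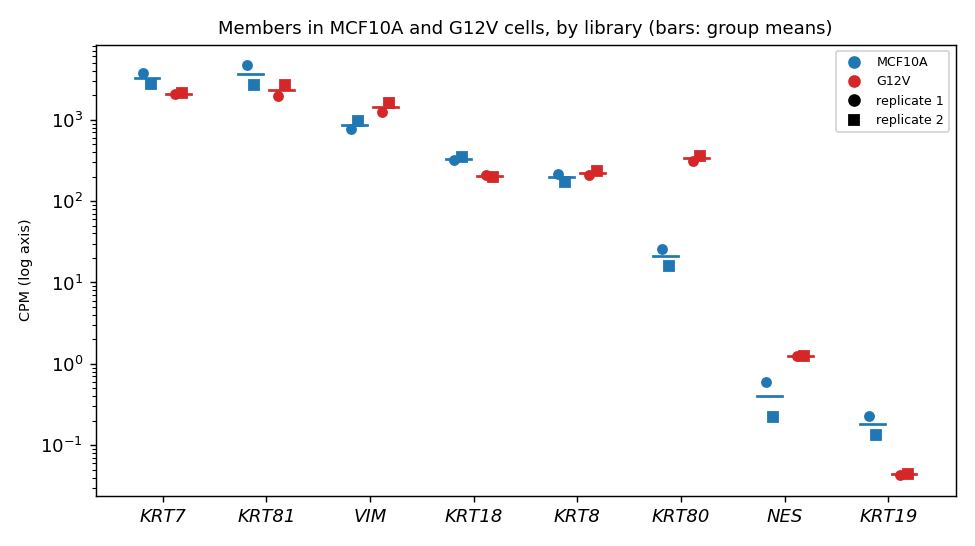
Level of the 8 genes in CPM on a log axis in each untreated library, with MCF10A and G12V cells side by side. Each point is 1 library and each bar the mean of the 2 libraries of a group, and KRT80 shows the widest gap, from at most 26.1 CPM to at least 315 CPM.

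KRT7, the type II keratin of ducts and other glandular epithelia at chr12:52626954-52642709 (plus strand), had 3810 and 2782 CPM in MCF10A and 2056 and 2136 CPM in G12V cells. Both G12V libraries were below both MCF10A libraries. The log2 fold change was -0.65 (SE 0.30, 95% interval -1.39 to 0.09), which did not pass the test (adjusted p = 0.249 by edgeR). It moved to -0.39 when MCF10A replicate 1 was left out and to -0.86 when MCF10A replicate 2 was.

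KRT8, at chr12:53290971-53298868 (minus strand), had 219 and 172 CPM in MCF10A and 211 and 233 CPM in G12V cells. The ranges overlapped, and the log2 fold change of 0.18 had an interval from -0.32 to 0.69 (SE 0.21, adjusted p = 0.661 by edgeR), and with 1 library left out it ranged from 0.018 to 0.39. KRT18, its type I partner at chr12:53342655-53346685 (plus strand), had 318 and 350 CPM in MCF10A and 208 and 200 CPM in G12V cells. Both G12V libraries were below both MCF10A libraries, with means of 334 ± 22.2 and 204 ± 5.82 CPM (SD, n = 2 each). The log2 fold change of -0.71 (SE 0.19, 95% interval -1.17 to -0.25) had an adjusted p of 0.0684 by edgeR's quasi-likelihood test. Over the unpaired fits of all libraries the adjusted p of KRT18 ranged from 0.0171, by DESeq2, to 0.0881. Parental cells given DMSO, counted on another annotation and scaled separately, had 206, 150.4 and 175 CPM of KRT18, all below the higher G12V library. A lower KRT18 level thus did not set G12V cells apart from all parental libraries. In the annotated transcripts, 39.2% of the 50-base stretches of KRT8 and 36.7% of those of KRT18 recur in other genes, among them KRT8P3 (22.8% of KRT8) and KRT18P11 (11.1% of KRT18), both processed pseudogenes. The untreated table has 1 pseudogene row for each, with 0% to 0.0812% as many reads as KRT8 and 0.0286% to 0.112% as many as KRT18. The table of the Nutlin-3a experiment has 50 such rows for KRT8, which together held 2.46% to 6.02% as many reads as KRT8.

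KRT19, the tailless type I keratin at chr17:39679869-39684641 (minus strand), had 5 and 3 reads in MCF10A and 1 read in each G12V library. It did not pass the filter, and a difference was not detectable at this depth.

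KRT8 and KRT18 were also compared within each library, because the proteins form a pair. The ratio of KRT8 to KRT18 was 0.687 and 0.492 in the MCF10A libraries and 1.01 and 1.16 in the G12V libraries, and the groups did not overlap. The difference was 0.90 on the log2 scale, against SDs of 0.34 and 0.14 (n = 2 each). An exact permutation test gave p = 0.33, the smallest that 2 against 2 libraries allow. This ratio compares counts and not transcripts, since the genes differ in length. In the DMSO libraries of parental cells, counted on another annotation, the ratio was 0.590, 0.795 and 1.16. The highest of these exceeded the lower G12V library, so the ratio did not set all parental libraries apart from G12V cells.

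VIM, at chr10:17270258-17279592 (plus strand), had 774 and 972 CPM in MCF10A and 1229.7 and 1626 CPM in G12V cells. Both G12V libraries were above both MCF10A libraries, and the mean level was 1.64-fold higher. The log2 fold change was 0.71 (SE 0.28, 95% interval 0.03 to 1.39), which did not pass the threshold after adjustment (adjusted p = 0.178 by edgeR). The ratio of VIM to the summed counts of KRT7, KRT8, KRT18 and KRT19 was 0.178 and 0.294 in the MCF10A libraries and 0.497 and 0.633 in the G12V libraries. This was a difference of 1.29 on the log2 scale, without overlap, and the exact permutation p was again 0.33.

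NES, at chr1:156638556-156647189 (minus strand), was read 13 and 5 times in MCF10A and 29 and 28 times in G12V cells, or 0.591 and 0.220 CPM against 1.24 and 1.25 CPM. All 4 levels are low. The log2 fold change of 1.61 (SE 0.55, 95% interval 0.27 to 2.95) had an adjusted p of 0.129 by edgeR. The value was 2.49 when MCF10A replicate 1 was left out and 1.07 when MCF10A replicate 2 was.

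**Figure D2:**
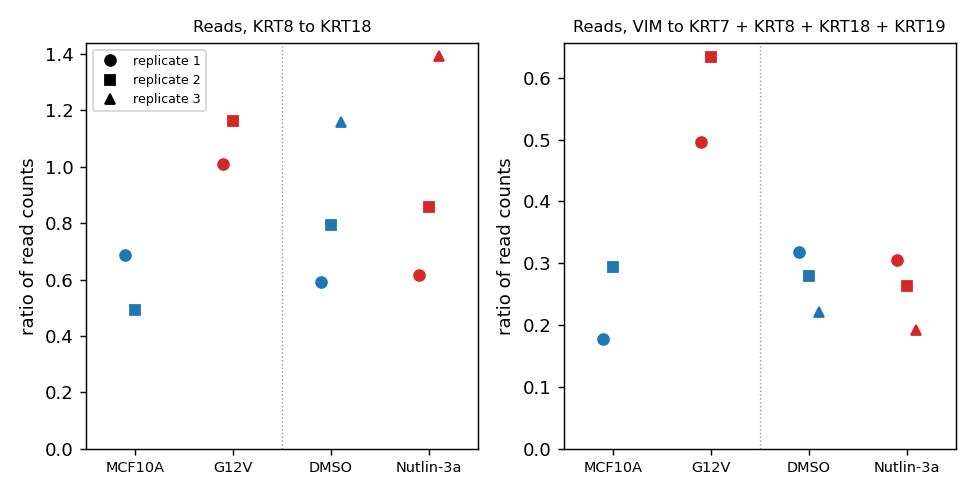
Ratio of counts in each library, KRT8 to KRT18 and VIM to the summed simple keratins KRT7, KRT8, KRT18 and KRT19, for the untreated cells and the Nutlin-3a experiment. Each point is 1 library, and both ratios were higher in both G12V libraries than in both MCF10A libraries. The highest DMSO library exceeded the lower G12V library in the KRT8 to KRT18 ratio but not in the VIM ratio.

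Levels of different genes were compared per kilobase of annotated transcript. In MCF10A the order was KRT7 (2028 ± 448 CPM per kb), KRT81 (1918 ± 732), VIM (405 ± 64.9), KRT18 (236 ± 15.7), KRT8 (109 ± 18.5), KRT80 (5.46 ± 1.82), KRT19 (0.129 ± 0.0484) and NES (0.0728 ± 0.0471; SD, n = 2 each). The libraries of KRT7 and KRT81 overlapped, as did those of KRT19 and NES. In G12V cells KRT80, at 87.1 ± 8.07 CPM per kb, stood next to KRT8 at 124 ± 8.78 and KRT18 at 144 ± 4.12. KRT7 (1290 ± 34.7) and KRT81 (1189 ± 259) again overlapped.

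The type II genes of the members and KRT18 share the keratin cluster of chromosome 12. Counted from KRT80, KRT7 lies 64.2 kb, KRT81 117 kb, KRT8 728 kb and KRT18 780 kb away. KRT80 was the one of them that was DE. Between KRT81 and KRT8, KRT6A fell from 699 to 59.7 CPM (log2 fold change -3.55, adjusted p = 0.00331), and KRT5, the basal type II keratin, fell from 4195 ± 680 to 1078 ± 201 CPM (log2 fold change -1.96, adjusted p = 0.0158 by edgeR).

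**Figure D3:**
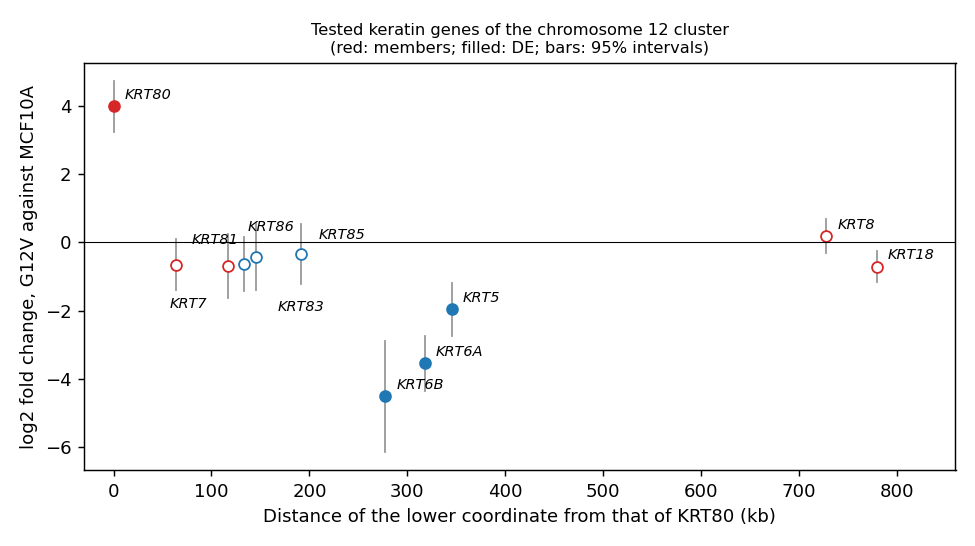
Log2 fold change, G12V over MCF10A, of the tested keratin genes of chromosome 12 against the distance from KRT80 in kb, with 95% intervals. KRT80 stands at 4.00, KRT7, KRT81, KRT8 and KRT18 lie between -0.71 and 0.18, and KRT6A, KRT6B and KRT5 lie at -3.55, -4.52 and -1.96.

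**Figure D4:**
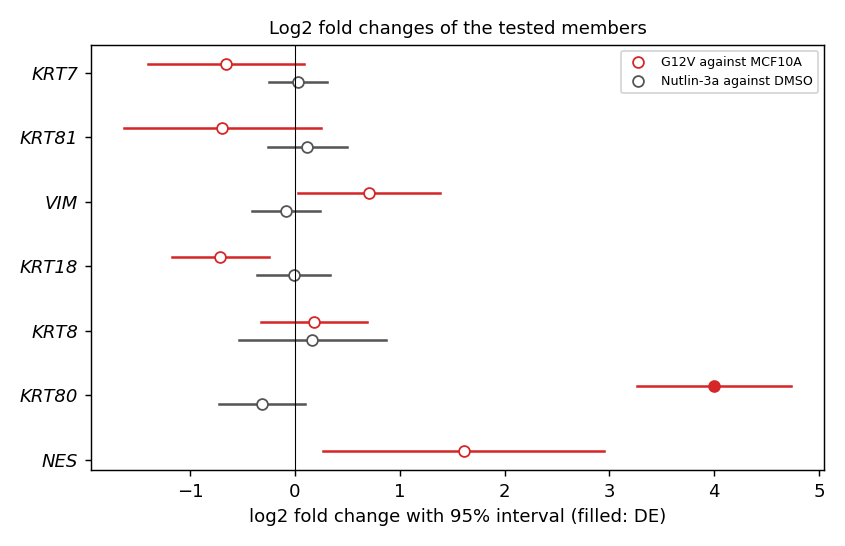
Log2 fold change with its 95% interval for each tested member, in G12V against MCF10A cells and in Nutlin-3a against DMSO. The interval of KRT80 in G12V cells runs from 3.26 to 4.73, and the intervals of all 6 genes tested under Nutlin-3a include 0.

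Other genes of the filament system were set beside the members. Of 44 other keratins named KRT and a number, 12 were tested, none was DE and higher and 7 were DE and lower. Their median change in log2 terms was -2.71, against -0.0011 over all genes tested. KRT14, KRT17 and KRT13 had the lowest fitted log2 fold changes, but the place of KRT13 depends on the prior count, and with a prior count of 2 it was -4.93, above KRT16 at -5.60. KRT14, the basal partner of KRT5, fell from 412 CPM to at most 3 reads per library, and KRT17 fell from 2066 to 0.992 CPM. KRT13 was at 0 reads in both G12V libraries and at least 19.9-fold lower, against a floor of 3 counts per library. In parental cells given DMSO in the Nutlin-3a experiment, the mean of KRT13 was also low, at 0.0583 CPM. KRT14 and KRT17 were at 90.2 and 241 CPM there. The test of KRT80 against these keratins was not made, so its direction is given beside theirs as a description.

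Of 10 genes for proteins that tie filaments to junctions, actin, microtubules or the nucleus, all 10 were tested, 5 were DE and lower and none higher, with a median log2 fold change of -0.79. These included EPPK1 (46.6 to 2.12 CPM, log2 fold change -4.46), PPL (221 ± 115 to 30.7 ± 10.6 CPM, SD, -2.84) and DSP, the desmosomal plaque protein that anchors keratins (881 to 156 CPM, -2.50). In parental cells given DMSO in the Nutlin-3a experiment, which was scaled separately, PPL had a mean of 23.0 CPM, below that of G12V cells. EPPK1 was at 147 CPM and DSP at 591 CPM there. Of 5 other intermediate filament genes and 6 chaperones and ubiquitin adaptors of filaments that were tested, none was DE by the quasi-likelihood test. Without a block, DESeq2 (adjusted p = 0.0336) and edgeR's exact test (0.0353) called HSPB1, a small heat shock protein gene. Of these 2 tests only edgeR's exact test called the filament gene SYNM (adjusted p = 0.00745) and the chaperone gene CRYAB (0.00116). With the replicate number as a block, edgeR called these 3 and KLHL24, a ubiquitin adaptor gene (log2 fold change -1.28, adjusted p = 6.4e-05). LMNA, the nuclear lamin A/C gene, had a mean of 499.5 CPM in MCF10A and 522 CPM in G12V cells.

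Of 8 luminal mammary markers, 3 were tested and 2 were DE and lower, MUC1 (290 to 25.4 CPM) and GATA3 (26.0 to 9.45 CPM). FOXA1, also tested, went the other way but was not DE (4.34 to 6.18 CPM, log2 fold change 0.51, adjusted p = 0.559 by edgeR). PGR and ANKRD30A were at 0 reads in all 4 libraries. With DMSO in the Nutlin-3a experiment, which was scaled separately, parental cells had a mean MUC1 level of 16.2 CPM, below that of G12V cells. Their GATA3 mean was 17.7 CPM, above that of G12V cells. Of 8 fibroblast markers, 4 were tested and 1, LUM, was DE and higher (log2 fold change 5.43, 0 to 28 reads per library). COL1A1 had means of 8.70 CPM in MCF10A and 3.94 CPM in G12V cells (log2 fold change -1.14). It was not DE (adjusted p = 0.166 by edgeR's quasi-likelihood test) but was DE and lower with the replicate block (0.0317). DCN and PDGFRB were not DE (log2 fold changes 0.28 and 0.42). CD68, a macrophage marker, rose from 12.2 to 55.0 CPM, while PTPRC, the pan-leukocyte gene, had 0 to 1 read per library. The 5 endothelial and leukocyte markers summed to 14.04 to 15.3 CPM in MCF10A and 41 to 75.9 CPM in G12V cells, mostly from CD68. PECAM1 had means of 2.32 CPM in MCF10A and 2.96 CPM in G12V cells (adjusted p = 0.691 by edgeR). VWF and CDH5 had means of at most 0.378 CPM. The part of these 5 markers in the results was not tested.

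The genes whose profile over the 4 untreated libraries came closest to that of KRT80, by the distance between log2 CPM profiles centred per gene with a prior count of 0.5, were EREG (distance 0.0852, log2 fold change 3.93), ANXA6 (0.254, 4.16) and C3AR1 (0.296, 5.84). C3AR1 had a mean of only 0.136 CPM in MCF10A, so the prior count draws its profile towards smaller differences, and its distance is uncertain. Those closest to KRT18, the tested member with the lowest log2 fold change, were TCTN2 (distance 0.0137), MRFAP1L1 (0.0316) and PPTC7 (0.0328). KRT18 was not DE and lay close to KRT81 (-0.71 and -0.69), and without MCF10A replicate 2 KRT81 (-1.04) and KRT7 (-0.86) were lower than KRT18 (-0.64).

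The Nutlin-3a experiment asked what activation of p53 does to parental MCF10A cells within 4 h. As a check, CDKN1A, a direct p53 target, rose from 654 ± 26.7 to 2916 ± 375 CPM (SD, n = 3 each), a log2 fold change of 2.16 (adjusted p = 0.000516 by edgeR). Of the 6 members tested (all but KRT19 and NES) none was DE, and none had an unadjusted p under 0.05 by edgeR's quasi-likelihood test, edgeR's exact test or DESeq2. With the replicate number as a block, which pairs these libraries, 1 member (KRT80) had an unadjusted p under 0.05 and none was DE. Over the 13529 genes tested, 0.170% were DE (0.155% higher and 0.0148% lower) and 3.42% had an unadjusted p under 0.05. The libraries of each member overlapped between the treatments, whereas in 8.07% of all genes tested they did not.

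KRT80 had 27.7, 23.6 and 22.3 CPM with DMSO and 24.8, 18.4 and 16.3 CPM with Nutlin-3a. It was lower in 3 of 3 numbered pairs of libraries, with a log2 fold change of -0.31 (95% interval -0.72 to 0.10, adjusted p = 1.00 by edgeR). In the blocked fit the log2 fold change was -0.32 and the adjusted p 0.184.

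KRT7 had 2197, 2311 and 2395 CPM with DMSO and 2064, 2389 and 2598 CPM with Nutlin-3a, a log2 fold change of 0.03 (95% interval -0.25 to 0.31). KRT81 had 4303, 3559 and 4608 CPM with DMSO and 3954, 4086 and 5511 CPM with Nutlin-3a (0.12, -0.26 to 0.50). In both genes the spread within a treatment was wider than the difference between treatments. On the annotation of this table KRT81 overlaps KRT86 on the other strand over 5622 bases, and KRT8 overlaps KRT18 over 972 bases. How reads in such overlaps were counted is not given in the sources used here, so some may be missing from these genes and from the KRT8 to KRT18 ratio.

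KRT8 had 121, 119.6 and 203 CPM with DMSO and 123, 129 and 246 CPM with Nutlin-3a, and replicate 3 was the highest library of both treatments. KRT18 had 206, 150.4 and 175 CPM with DMSO and 201, 150.1 and 177 CPM with Nutlin-3a. The log2 fold changes were 0.17 (95% interval -0.53 to 0.87) and -0.01 (-0.36 to 0.34). The ratio of KRT8 to KRT18 counts was 0.590, 0.795 and 1.16 with DMSO and 0.615, 0.857 and 1.39 with Nutlin-3a, higher in 3 of 3 pairs (exact paired permutation p = 0.25, the smallest that 3 pairs allow).

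VIM had 802, 719 and 615 CPM with DMSO and 731, 704 and 579 CPM with Nutlin-3a, lower in 3 of 3 pairs, with a log2 fold change of -0.09 (95% interval -0.41 to 0.24). NES was read 6, 10 and 7 times with DMSO and 6, 15 and 4 times with Nutlin-3a, and KRT19 had at most 2 reads in each library. Neither was tested, and a change was not detectable at this depth.

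**Figure D5:**
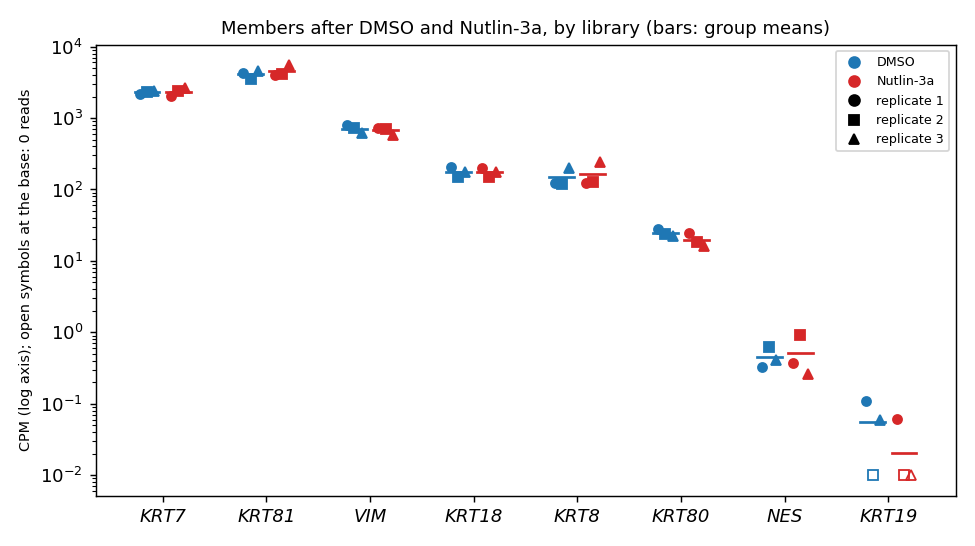
Level of the members in CPM on a log axis in the 3 DMSO and 3 Nutlin-3a libraries of parental MCF10A cells. Each point is 1 library, and the libraries of the 2 treatments overlap for each of the 6 genes tested, KRT80 at 22.3 to 27.7 and 16.3 to 24.8 CPM among them.

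No gene of the 8 lists of keratins, filament genes and markers was DE under Nutlin-3a, and 1, LMNB1, had an unadjusted p under 0.05 by edgeR's quasi-likelihood test. With the replicate number as a block, 6 listed genes had an unadjusted p under 0.05 and 1, LMNB1, was DE. DESeq2 and edgeR's exact test also called LMNB1.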

How the data were processed

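Per the labels and the study's methods, the authors selected poly(A) RNA, made libraries with a kit that does not mark strand, aligned reads to hg19 (TopHat), and deposited the raw counts per gene that HTSeq gave. The annotations, the strand setting and the treatment of reads that match several genes are not given in the sources used here. The untreated and the Nutlin-3a libraries are in separate tables on different annotations and were fitted separately.

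From the counts, each comparison was fitted with edgeR 4.0.16 (R 4.3.3, limma 3.58.1): filterByExpr, TMM, quasi-likelihood test, Benjamini-Hochberg adjustment, and log2 fold changes with a prior count of 0.125. Standard errors (SE) were obtained by dividing the size of a log2 fold change by the root of its F statistic. Ratios of counts were compared by two-sided exact permutation tests. DESeq2 1.42.0 and the other alternatives are below. The scripts were tested on simulated data. Start coordinates of both tables were taken as 0-based and raised by 1. This was checked for the Nutlin-3a experiment only, where 92.2% of rows with the same transcript and end were 0-based. Transcript lengths and 50-base stretches come from the GENCODE annotation of hg19. Figures used Python 3.11.15 and matplotlib 3.10.9.

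The members and gene lists were chosen with earlier results of these data known. Named genes are all members, the label checks, up to 3 DE genes with the largest rise and fall per list (a gene of several lists is described under one), copies and pseudogenes of members, and the 3 genes nearest in profile to the members with the largest rise and fall. KRT6A, KRT6B, LMNB1, COL1A1, DCN, PDGFRB, FOXA1, KLHL24 and PECAM1 were chosen after their values were seen. In the Nutlin-3a experiment, same-numbered libraries deviated together from their group means (correlations 0.641, 0.649 and 0.676), so the numbers were taken to pair them. Other pairs had correlations of -0.499 to -0.206. Deviations from a group mean cancel within the group, so positive values for the same number pull the other pairs negative. The range of the other pairs is therefore no separate check. The floor of 3 counts covers counting error only, because PCR copies were not marked by molecular identifiers.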

Additional observations from a re-analysis of the deposited data

How the results depend on the processing

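In G12V cells 1 member was DE, and the count was 2 with DESeq2 (KRT80 and KRT18), 3 with edgeR's exact test (also NES), 4 at an unadjusted p under 0.05 and a fold above 1.3, and 5 once the replicate number was a block. The calls over all 14376 genes tested rose as well. They were 1575 in the main fit, 2307 with DESeq2, 2536 with edgeR's exact test, 3676 at the unadjusted threshold and 4158 with the block. The fits without 1 library gave 0 to 1 members, and 0 to 22 of the listed genes against 21, with 0 in both cases without MCF10A replicate 1. The listed genes called were 22 with DESeq2, 24 with edgeR's exact test, 26 at the unadjusted threshold and 27 with the replicate block. Only 2 pairs share a number there (correlation 0.535), so the block result rests on a shared number: KRT7 -0.64, KRT18 -0.71, VIM 0.71, NES 1.65 and KRT80 4.03 were called, and KRT8 and KRT81 were not. Under Nutlin-3a no listed gene was DE, and 1, LMNB1, was DE with DESeq2, with edgeR's exact test, with no filter, with the replicate block and at the unadjusted threshold. The cause of these changes was not tested.

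Values near 0 under Nutlin-3a changed sign. KRT7 was -0.0062 with library totals alone. Over the fits without 1 library the log2 fold change ranged from -0.049 to 0.12 in KRT7, from -0.23 to 0.47 in KRT8, from -0.11 to 0.11 in KRT18, from -0.050 to 0.21 in KRT81 and from -0.18 to 0.0086 in VIM. The KRT8 to KRT18 ratio ranged from -0.17 to 0.42 and the VIM ratio from -0.26 to 0.074. In G12V cells KRT80 ranged from 3.69 to 4.40. With 2 libraries in a group, differences of the size seen in KRT7, KRT81 and VIM did not pass the test, which does not show that they are absent.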

Other observations

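LMNB1, which encodes the nuclear lamin B1 and belongs to the list of other intermediate filament genes, was chosen after its values were seen. It had 129, 117 and 115 CPM with DMSO and 81.9, 76.96 and 70.6 CPM with Nutlin-3a, and the treatments did not overlap. The log2 fold change was -0.66 (SE 0.10), and the adjusted p was 0.0806 by edgeR's quasi-likelihood test, 0.000482 with the replicate block and 5.7e-05 by DESeq2. Between MCF10A and G12V cells it differed by 0.15 on the log2 scale (adjusted p = 0.884 by edgeR).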
